A study of Homo sapiens with 17 samples.

Results

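The genes described here encode the contractile apparatus of smooth muscle, together with the transcription factor that controls them: ACTA2, TAGLN, CNN1, LMOD1, MYL9, MYH11, TPM1, TPM2, CALD1 and SRF. A member was any row of the expression table that carried 1 of these 10 gene symbols. The table held such a row for 9 of the 10, out of 9699 genes in all, and MYH11 was not analysed here. The list was chosen by the RNA-Seq, Ribo-Seq and translation efficiency values of all 12 columns, which were in view, so what follows describes levels and differences and tests none of them. The 9 members passed the filter used for counts over all genes, a mean of at least 5 FPKM (fragments per kilobase of transcript, scaled to the number of reads) in each assay, as did 7263 genes in total, called tested genes below. CNN1 passed it through the columns of run 2, since its RNA was under 5 FPKM in every column of run 1, and LMOD1 passed it in RNA through the run 2 control. As each is then set against that control, their places in the counts for run 2 are partly fixed by the filter.

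The study measured messenger RNA (RNA-Seq) and the fragments of it that ribosomes cover (Ribo-Seq, a measure of translation) in BJ cells, human foreskin fibroblasts that an hTERT transgene keeps dividing. There were 5 states in 17 samples. Controls proliferated under normal growth conditions with fetal calf serum. Quiescence was brought on by depleting serum. For both RAS states, BJ cells with hTERT and a tamoxifen-inducible RASG12V received 1e-07 M 4-hydroxytamoxifen for 5 days (pre-senescence) or for 14 days (senescence). The transformed cells carried hTERT, a p16INK4A knockdown with a further stable knockdown, SV40 small T and a retroviral RASG12V from pBabe-puro. These are lines of 1 cell type in culture, and the labels name no separate vector control for small T or either knockdown. Run 1 of the sequencer held a proliferating control, quiescence and RAS day 5, and run 2 held another proliferating control, RAS day 14 and the transformed cells. Each state was set against the control of its own run.

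Smooth-muscle contraction rests on thin filaments of actin that slide along myosin. SRF, the serum response factor, binds a short DNA element called the CArG box in front of the contractile genes, and its cofactors of the myocardin family, MYOCD and the MRTFs, couple those genes to the state of the actin cytoskeleton. Fibroblasts switch on part of the same programme when they become myofibroblasts, the contractile cells of wounds and scars, and ACTA2 is the usual marker of that switch.

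Each state had a single column per assay in each run, and 5 of the 12 columns were pooled by the authors from replicates, so no spread between replicates could be computed and no difference below has a replicate check. The gap between both proliferating controls is given beside the differences instead. It mixes sequencer run, culture and, in RNA-Seq, paired-end reads in run 1 with single-end reads in run 2, which cannot be told apart. In bulk cells, fewer cells of a kind and less RNA per cell cannot be told apart either. The 2 Ribo-Seq libraries titled S.rp (RAS day 14) and C3.rp (proliferation) carry each other's condition in their labels. They were taken by title, as the RNA columns are: MKI67, a marker of dividing cells, was at 1.00 FPKM in the column titled S.rp and at 43.0 in the other, while CDKN1A, which encodes the cell cycle inhibitor p21, was at 548 and 223. Values of 1.00 FPKM are a floor, because the authors set anything smaller to 1.

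The columns labelled transformed were checked for the p16INK4A knockdown. CDKN2A, which encodes p16INK4A, was at 12.6 FPKM of RNA there, against 6.75 in the run 2 control and 17.2 in that of run 1. In Ribo-Seq it was at 5.51, against 8.92 and 13.0. Its RNA goes against the label beside the control of its own run, but not beside that of run 1. The row is 1 transcript of the gene, so the check leaves the knockdown undecided. HRAS RNA was 312 FPKM in the columns labelled transformed and between 1254 and 2415 in the other 5 RNA columns, controls included. In Ribo-Seq HRAS was at 212 there and between 2058 and 4769 in the other 5 columns. HRAS was thus lowest where the label gives a retroviral RASG12V, and the reason was not tested. All 9 fibroblast markers looked for had a row, with a summed RNA level between 4754 and 6782 FPKM over the 6 columns. VIM was the largest part in every column, with 2956 to 4881 FPKM, so the sum mostly follows that gene. None of 8 skeletal or cardiac muscle genes and none of 4 endothelial genes had one. Of the defining smooth-muscle genes, MYH11 and DES (desmin) had no row and MYOCD lay between 1.00 and 5.58 FPKM of RNA, while CNN1 reached 36.9, ACTG2 (enteric actin) 22.4 and SMTN (smoothelin) 141. The 4 smooth-muscle genes with a row summed to between 91.4 and 149 FPKM, of which SMTN was the largest part in every column, with 60.1 to 141. The name of the gene set is used here for what the genes do in muscle.

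The promoter sequences below show the element through which SRF acts. RefSeq windows of 250 bases before the transcription start (build GRCh38.p14) were at hand for 7 of the 10 members, 13 windows in all because some genes have several starts. A CArG box, 10 bases made of CC, then 6 bases that are each A or T, then GG, reads the same way on either strand. It was found in 1 of the 13 windows, in front of SRF itself, and in 407 (1.16%) of all 35116 windows. Allowing 1 of the 6 inner bases to be G or C, 3 of the 13 windows matched, and 2472 (7.04%) of all. The 3 stretches run 5′ to 3′ up to the transcription start, with the matches in capitals. They lie at chr10:88952774-88952914 (ACTA2, minus strand), chr6:43171219-43171268 (SRF, plus strand) and chr7:134711453-134711498 (CALD1, plus strand).
ACTA2: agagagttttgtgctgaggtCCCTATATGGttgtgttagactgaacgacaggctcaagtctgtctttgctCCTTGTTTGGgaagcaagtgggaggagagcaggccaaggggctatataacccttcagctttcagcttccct
SRF: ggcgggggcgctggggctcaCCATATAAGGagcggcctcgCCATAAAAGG
CALD1: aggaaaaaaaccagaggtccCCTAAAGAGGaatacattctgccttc
The matches begin 121 and 71 bases before the start of ACTA2, 30 and 10 before that of SRF and 26 before that of CALD1. Those of ACTA2 and CALD1 are each 1 base away from the full element. The match is a description of these letters and says nothing of binding in these cells.

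The contractile genes were lower than in the same-run control in most states, most of all in the columns labelled transformed, where all 9 had less RNA (39.6% of all genes did) and 6 were at least 2-fold lower (4.05% of all genes). LMOD1, TAGLN, CNN1 and ACTA2 were furthest below it there. The 2 proliferating controls were themselves far apart for these genes, with CNN1 RNA 11.8-fold and LMOD1 RNA 6.58-fold higher in run 2. SRF differed little: its RNA stayed within a range of 0.78 on the log2 scale over the 6 columns, while the median range of the 9 members was 2.41 and that of all 7263 genes was 0.94.

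SRF (ENST00000265354), the DNA-binding factor of the set, had an RNA level of 29.4 FPKM in proliferation run 1, 22.2 in quiescence and 28.7 at RAS day 5, and of 30.2 in proliferation run 2, 17.6 at RAS day 14 and 27.4 in the columns labelled transformed. Both controls were nearly equal and RAS day 14 was the lowest, 1.72-fold under its control. Ribo-Seq levels of SRF were 8.40, 7.14 and 12.8 FPKM in run 1 and 8.86, 5.92 and 8.05 in run 2, in the same order. RAS day 5 had the highest of these, 1.53-fold above its control although its RNA differed by only 1.03-fold, and RAS day 14 the lowest.

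Of 9 listed SRF cofactors and partners, 6 had a row and 4 passed the filter. None of the 4 differed by 2-fold in RNA in any state or between the controls. Depending on the comparison, 1.73% to 11.2% of all genes were lower and 1.65% to 7.2% higher, so 0 of 4 says little. MKL1, which encodes the MRTF-A cofactor that actin monomers hold back, ranged from 10.8 to 14.6 FPKM of RNA. MYOCD, the master cofactor of smooth muscle, was at the floor of 1.00 FPKM in all 3 RNA columns of run 1, and at 4.46 in proliferation, 5.58 at RAS day 14 and 1.58 in the transformed column of run 2. Its Ribo-Seq levels had the same layout, 1.00 in run 1 and 3.49, 4.23 and 1.38 in run 2. The TCF partners ELK1 and ELK3, which turn SRF toward growth-factor genes, passed 2-fold from a same-run control in Ribo-Seq only. ELK1 differed by -1.35 (log2) at RAS day 14, where 15.5% of all genes were lower. ELK3 differed by 1.59 in the column labelled transformed, where 3.7% were higher. The Ribo-Seq level of ELK3 was 38.7 FPKM there, against 12.8 in the run 2 control and 27.1 in that of run 1.

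ACTA2 (ENST00000458208) encodes smooth-muscle alpha-actin. Its RNA was at 23.8 FPKM in proliferation run 1, 31.0 in quiescence and 13.4 at RAS day 5, then 52.0 in proliferation run 2, 45.3 at RAS day 14 and 7.79 in the column labelled transformed. Ribo-Seq gave 23.9, 35.0 and 16.4 FPKM in run 1 and 62.0, 47.8 and 10.5 in run 2. Quiescence was the only state in which ACTA2 was above its control, 1.30-fold in RNA and 1.47-fold in Ribo-Seq, and the column labelled transformed was 6.67-fold lower in RNA and 5.91-fold lower in Ribo-Seq. That column was below both controls in both assays.

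Actins are close copies of each other, and only reads that mapped to 1 place were counted, so the level of each is uncertain. ACTG2, the enteric smooth-muscle actin, ran the other way from ACTA2 between the controls: its RNA was 22.4 FPKM in proliferation run 1 and 2.13 in run 2, a log2 difference of -3.39 where that of ACTA2 was 1.13. ACTG2 was lower than its control by at least 2-fold in RNA in all 4 states. It had 9.42 FPKM in quiescence, 8.15 at RAS day 5, 1.01 at RAS day 14 and 1.00, the floor, in the column labelled transformed. Of all genes 2.48%, 1.73%, 11.2% and 4.05% were lower in these states. ACTG2 passed the filter in RNA through the run 1 control, so its differences from that control are partly fixed by the filter. All its run 2 values lie near the floor. ACTB, the cytoplasmic beta-actin, had 4720 FPKM of RNA in proliferation run 1 and 2230.4 in quiescence, a log2 difference of -1.08, and 4432 in proliferation run 2, 2962 at RAS day 14 and 3174 in the transformed column.

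TAGLN (ENST00000532870), or SM22-alpha, an actin-bundling protein of the calponin family, had RNA at 300.3 FPKM in proliferation run 1, 149 in quiescence and 125 at RAS day 5, and at 409 in proliferation run 2, 251 at RAS day 14 and 54.4 in the column labelled transformed. Its Ribo-Seq levels were 4098, 1810.0 and 1139 FPKM in run 1 and 2595, 1266 and 381 in run 2. Every state was below both controls in both assays. TAGLN ranked 10th from the top of 9699 genes by Ribo-Seq level in proliferation run 1 and 334th in the transformed column. The distance from the same-run control was 7.51-fold in RNA and 6.81-fold in Ribo-Seq for the transformed column, and 2.40-fold and 3.60-fold for RAS day 5.

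CNN1 (ENST00000252456), the basic calponin that binds actin and slows myosin, was hardly present in run 1. RNA levels were 3.13 FPKM in proliferation, 1.88 in quiescence and 1.21 at RAS day 5, against 36.9 in proliferation, 20.8 at RAS day 14 and 5.01 in the transformed column of run 2. Ribo-Seq levels were 4.79, 2.31 and the floor of 1.00 FPKM in run 1, and 42.2, 20.3 and 6.25 in run 2. Every column of run 2 lay above every column of run 1 in both assays. The direction of a difference for CNN1 therefore hung on the control: the transformed column was 7.37-fold lower in RNA than the run 2 control, but differed by 0.68 (log2) upward from the run 1 control, and RAS day 14 differed by -1.05 and by 2.08 in Ribo-Seq.

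LMOD1 (ENST00000367288), leiomodin, which nucleates actin filaments in smooth muscle, had 8.21 FPKM of RNA in proliferation run 1, 6.85 in quiescence and the floor of 1.00 at RAS day 5. In run 2 it had 54.0 in proliferation, 4.64 at RAS day 14 and again 1.00 in the transformed column. Ribo-Seq followed with 17.8, 14.7 and 4.27 FPKM in run 1 and 106, 8.63 and 1.99 in run 2. LMOD1 was the member furthest below its control in each of the 3 RASG12V states in RNA, at least 8.21-fold at day 5, 11.6-fold at day 14 and at least 54.0-fold in the column labelled transformed, and each of those columns was below both controls. In quiescence it differed by 1.20-fold. In Ribo-Seq the distances were 4.16-fold, 12.3-fold and 53.5-fold, and at day 5 CNN1 lay lower still, by at least 4.79-fold.

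MYL9 (ENST00000279022), the regulatory light chain whose phosphorylation starts contraction, was among the most abundant transcripts, ranked 24th to 123rd of 9699 by RNA level. It had 768 FPKM in proliferation run 1, 394 in quiescence and 449.7 at RAS day 5, and 1026 in proliferation run 2, 1179 at RAS day 14 and 441 in the transformed column. Ribo-Seq levels were 1378, 698 and 577 FPKM in run 1 and 1922, 1488 and 734 in run 2. RAS day 14 was the highest RNA column and stood above both controls in RNA, by 1.15-fold over its own, while in Ribo-Seq it was 1.29-fold under its own. The transformed column was 2.33-fold lower in RNA and 2.62-fold lower in Ribo-Seq. MYL12A and MYL12B encode near-identical light chains. Only uniquely mapped reads were counted, so reads shared between these genes were left out, which may lower their levels.

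The switch that phosphorylates MYL9 was looked at through 9 listed genes with a row, all of which passed the filter. None differed by 2-fold in RNA in quiescence, at RAS day 5 or in the transformed column. In these states 1.73% to 4.05% of all genes were lower and 1.65% to 3.69% higher. At RAS day 14, MYLK, the myosin light chain kinase, differed by -1.64 (log2), with 54.0 FPKM of RNA against 168, and RHOB, a small GTPase that acts upstream of the kinase ROCK, by -1.08. They are 2 of the 9, in a column where 11.2% of all genes were lower. MYLK and RHOB were also the 2 genes of this list at least 2-fold higher in RNA in the run 2 control, by 1.06 and 1.65. Of all genes 3.81% were higher there than in the control of run 1.

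TPM1 (ENST00000357980), a tropomyosin that lies along the actin filament and gates access of myosin, had RNA at 279 FPKM in proliferation run 1, 104 in quiescence and 168 at RAS day 5. In run 2 the levels were 553, 394 and 279.6 in proliferation, RAS day 14 and the transformed column. Its Ribo-Seq levels were 1059, 378 and 420.1 FPKM in run 1 and 1322, 911 and 825.5 in run 2. TPM1 was the member furthest below its control in quiescence, 2.68-fold in RNA and 2.80-fold in Ribo-Seq, and the transformed RNA column was level with the run 1 control while it was 1.98-fold under that of run 2.

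TPM2 (ENST00000378300), the beta-tropomyosin, was the contractile gene that stayed closest to its same-run controls. RNA stood at 290.4, 218 and 284 FPKM in proliferation, quiescence and RAS day 5 of run 1, and at 708, 1131 and 485 in proliferation, RAS day 14 and the transformed column of run 2. Ribo-Seq levels were 1873, 1722 and 1959 FPKM in run 1 and 3145, 3408 and 2436 in run 2. Its largest distance from a same-run control was 1.60-fold, upward, in RNA at RAS day 14, whereas the run 2 control was 2.44-fold above that of run 1. TPM2 ranked between 19th and 35th of all genes by Ribo-Seq level in every column. Isoforms of TPM1 and TPM2 share sequence with each other and with TPM3 and TPM4, which leaves their single-transcript levels uncertain.

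CALD1 (ENST00000361675), caldesmon, which holds tropomyosin-coated filaments off myosin, had 148 FPKM of RNA in proliferation run 1, 119 in quiescence and 90.5 at RAS day 5, and 368, 254 and 111 in proliferation, RAS day 14 and the transformed column of run 2. Ribo-Seq levels were 424, 369 and 241 FPKM in run 1 and 924, 677 and 408 in run 2. Each state was under its own control in both assays. The transformed column was 3.31-fold lower in RNA and 2.26-fold lower in Ribo-Seq, but only -0.41 and -0.05 (log2) away from the control of run 1.

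In quiescence 8 of the 9 genes had less RNA than the control, with ACTA2 the exception, and so did 54.0% of all genes. The median difference was -0.41 (log2) where that of all genes was -0.04. TAGLN and TPM1 were at least 2-fold lower in RNA (2 of 9, with 2.48% of all genes lower by as much) and no member was 2-fold higher (3.32% of all genes). In Ribo-Seq 3 members were 2-fold lower, TAGLN, CNN1 and TPM1, against 7.53% of all genes, and none was higher, against 6.9%. The median Ribo-Seq difference was -0.27, and -0.12 over all genes. TAGLN and TPM1 RNA was also 2-fold lower than in both controls, as was that of 0.688% of all genes.

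At RAS day 5 all 9 had less RNA than the control, as did 42.3% of all genes. The median was -0.77 against 0.06 for all genes. TAGLN, CNN1 and LMOD1 were at least 2-fold lower, beside 1.73% of all genes, and none was higher, beside 1.65%. In Ribo-Seq 5 members were 2-fold lower: TAGLN, CNN1, MYL9, TPM1 and LMOD1. Their background was 8.25% of all genes lower and 4.79% higher, with no member among the latter. The median Ribo-Seq difference was -1.26 for the members and -0.14 for all genes. All 5 were 2-fold below both controls in Ribo-Seq, as were 4.74% of all genes.

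At RAS day 14 the picture in RNA was narrower. LMOD1 was the only member at least 2-fold lower, in a column where 11.2% of all genes were lower and 7.2% higher, and the median was -0.53 against 0.04. MYL9 and TPM2 had more RNA than either control. Ribo-Seq placed 3 members 2-fold lower, TAGLN, CNN1 and LMOD1, beside 15.5% of all genes, and none higher, beside 10.7%. These shares of the whole table are large, and the Ribo-Seq counts rest on taking the libraries by title. With both exchanged, 3 members are 2-fold higher and none lower, beside 15.5% and 10.7% of all genes.

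In the columns labelled transformed all 9 were below the control of run 2 in both assays. Of all genes 39.6% were below it in RNA and 49.1% in Ribo-Seq. ACTA2, TAGLN, CNN1, MYL9, CALD1 and LMOD1 were at least 2-fold lower in RNA, beside 4.05% of all genes lower and 3.69% higher, and the same 6 were so in Ribo-Seq, beside 5.77% lower and 3.7% higher. The median was -1.73 in RNA and -1.39 in Ribo-Seq, with 0.10 and 0.01 over all genes. Measured from the control of run 1, ACTA2, TAGLN and LMOD1, 3 of the 6, stayed 2-fold lower in each assay. Of all genes 3.91% were so in RNA and 9.36% in Ribo-Seq. The same 3 were 2-fold below both controls, as were 1.94% of all genes in RNA and 2.91% in Ribo-Seq.

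The transformed column can also be set against RAS day 14 of the same run, a comparison chosen after the values were seen. By their labels both carry RASG12V, and only the transformed cells carry the knockdowns and small T. They also differ in the RAS construct, tamoxifen-inducible only in the day 14 cells, and in the 4-hydroxytamoxifen given to those cells. HRAS RNA was 2087 FPKM at RAS day 14 and 312 in the transformed column, and its Ribo-Seq level was 4010 and 212. These differences cannot be told apart here. Then 7 members were at least 2-fold lower in RNA, all but TPM1 and SRF, beside 8% of all genes, and 5 were lower in Ribo-Seq, beside 12.2%. ACTA2 differed by -2.54 and TAGLN by -2.20 in RNA, and LMOD1, at the floor in the transformed column, was at least 4.64-fold lower. SRF differed by 0.64 upward in RNA and 0.44 in Ribo-Seq. The median was -1.42 in RNA and -1.02 in Ribo-Seq, beside 0.05 and 0.09 for all genes.

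Both controls are proliferating cultures by title, and all 9 genes had more RNA in that of run 2, where 56.9% of all genes had less. At least 2-fold higher were ACTA2 (1.13 on the log2 scale), TPM2 (1.28), CALD1 (1.32), LMOD1 (2.72) and CNN1 (3.56), 5 of 9, while 3.81% of all genes were higher and 2.78% lower. In Ribo-Seq ACTA2, CALD1, LMOD1 and CNN1 were 2-fold higher, 4 of 9, beside 8.25% of all genes, and none was 2-fold lower, beside 7.24%. TAGLN alone was lower in run 2 in Ribo-Seq, by -0.66. RNA of 7 members and Ribo-Seq signal of 6 had their highest level of all columns in the run 2 control.

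Other genes moved with that gap. Among the 9 fibroblast markers, 6 were at least 2-fold higher in RNA in the run 2 control, beside 3.81% of all genes, with a median of 1.84. They were led by DCN (2.57), LUM (2.20) and COL1A2 (2.07), which encode a pair of small proteoglycans and a collagen chain of the matrix. In the same list, 7 of 9 were 2-fold lower in RNA at RAS day 14, 5 at day 5 and 4 in the transformed column, beside 11.2%, 1.73% and 4.05% of all genes. In quiescence 2 were higher and none lower, beside 3.32% and 2.48% of all genes. KRT19, a keratin of epithelia, was the only 1 of 5 epithelial markers with a row, at 39.8 FPKM of RNA in the run 2 control and between 1.00 and 4.43 in the other 5 columns. MKI67 RNA was 73.9 FPKM in the control of run 1 and 44.0 in that of run 2. The part of any of these in the differences of the contractile genes was not tested.

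Translation efficiency (TE), the log2 ratio of Ribo-Seq to RNA-Seq FPKM, differed widely among the members. The RNA value covers the whole transcript and the Ribo-Seq value the coding part alone, so the level of TE depends on how much of a transcript is coding. TAGLN had the highest TE of the set in every state: 3.77 in proliferation run 1, 3.60 in quiescence and 3.19 at RAS day 5, and 2.67 in proliferation run 2, 2.34 at RAS day 14 and 2.81 in the transformed column. Only 20 of the 7263 genes had a higher TE in proliferation run 1, and 141 in run 2. TPM2 came next with 2.69, 2.98 and 2.79 in run 1 and 2.15, 1.59 and 2.33 in run 2. The median of all genes lay between 0.33 and 0.53.

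SRF was at the other end, with TE of -1.81, -1.64 and -1.16 in run 1 and -1.77, -1.57 and -1.76 in run 2, in the same order of columns. Between 114 and 457 genes had a lower one. TPM1 and CALD1 were above the median of all genes in every state, from 1.21 to 1.92 and from 1.33 to 1.88. ACTA2 and CNN1 were at or under it, from 0.00 to 0.43 and from -0.28 to 0.61, apart from CNN1 in proliferation run 1. MYL9 lay on both sides of it, from 0.34 to 0.91, and LMOD1 above it, from 0.90 to 2.09. The LMOD1 values at RAS day 5 (2.09) and in the transformed column (0.99) are lower bounds, because RNA was at the floor there.

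TE itself varied less over the states than the levels did. Its range over the 6 states had a median of 0.71 (log2) over the 9 members and 0.95 over all genes, whereas the range of RNA was 2.41 against 0.94 and that of Ribo-Seq 1.94 against 1.33. No member differed by 1.5-fold in TE from its control in quiescence, where 12% of all genes were lower and 8.33% higher. None was called at RAS day 14, with 18.7% and 11.8%, or in the transformed column, with 8.67% and 3.22%. For LMOD1 in the transformed column the difference of 0.01 is a lower bound, as RNA was at the floor, so a higher call may be missed. The counts of 0 hung on the control. With that of the other run, 3 members were higher in quiescence, beside 10.1% of all genes. Then 4 were lower at RAS day 14 and 1 in the transformed column, beside 22.0% and 16.5% of all genes. With the RAS day 14 and proliferating Ribo-Seq libraries of run 2 exchanged, 6 were higher and 1 lower at RAS day 14. Of all genes 34.9% were then higher and 31.7% lower. In the transformed column 6 were higher after the exchange, beside 24.8% of all genes. At RAS day 5, 2 were lower, CNN1 by -0.89 and TPM1 by -0.60, beside 22% of all genes, and 2 higher, LMOD1 by 0.98 and SRF by 0.65, beside 11%. CNN1 in Ribo-Seq and LMOD1 in RNA are at the floor there, so the first value is an upper and the second a lower bound. TAGLN, at -0.58, lay just short of the 1.5-fold call at RAS day 5, and TPM1 just past it. Between the controls TAGLN (-1.10) and TPM1 (-0.67) had a lower TE in run 2, beside 9.9% of all genes. TAGLN thus had 1.36-fold more RNA in run 2 and 1.58-fold less Ribo-Seq signal.

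Of 21 listed cytoskeletal genes outside the set that SRF and the MRTFs are known to drive, 18 passed the filter. Lower in RNA by at least 2-fold were none in quiescence, 2 at RAS day 5, 6 at RAS day 14 and 5 in the transformed column, with medians of -0.23, -0.43, -0.74 and -0.55 over the 18. Over all genes the lower shares were 2.48%, 1.73%, 11.2% and 4.05%. CRYAB, a small heat shock protein of muscle, had 11.8 FPKM of RNA in proliferation run 1, 6.63 in quiescence and 2.48 at RAS day 5, and 33.8 in proliferation run 2, 5.45 at RAS day 14 and the floor of 1.00 in the transformed column. PALLD, the actin-crosslinking palladin, differed by -2.73 and FHL1, a LIM protein of muscle, by -1.87 in the transformed column. SMTN was the 1 gene of the list at least 2-fold higher there, with 141 FPKM against 60.1 in the control, beside 3.69% of all genes. KANK2 and TGFB1I1, which act at focal adhesions, differed by -2.30 and -1.84 at RAS day 14. Between the controls 3 of the 18 were higher in run 2, CRYAB, PALLD and PDLIM5, by 1.09 to 1.52, beside 3.81% of all genes.

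In Ribo-Seq, 1 of the 18 was at least 2-fold lower in quiescence, 4 at RAS day 5, 6 at RAS day 14 and 6 in the transformed column. The shares of all genes were 7.53%, 8.25%, 15.5% and 5.77%. In each of the last 3 states 1 was higher, where 4.79%, 10.7% and 3.7% of all genes were. The higher ones were ITGA5 at day 5 (1.26), an integrin chain named here within the largest differences of its list, and, named after their values were seen, ITGB1 at day 14 (1.35) and SMTN in the transformed column (1.19). Of the immediate early genes that SRF drives with the TCF partners, 4 passed the filter. At RAS day 5, 1 of them was at least 2-fold higher in RNA, beside 1.65% of all genes. This was EGR1, a zinc finger factor of the growth response, with 53.8 FPKM of RNA against 23.5 in the control, and 98.4 against 18.5 in Ribo-Seq. JUNB, an AP-1 subunit, differed by 1.22 in Ribo-Seq there, so 2 of the 4 were 2-fold higher in Ribo-Seq, beside 4.79% of all genes. The JUNB rise was not particular to RAS day 5. In quiescence JUNB differed by 1.37 in Ribo-Seq, the only 1 of the 4 that was 2-fold higher there, beside 6.9% of all genes. The RNA median over the 4 genes was 0.44 in quiescence, 0.73 at RAS day 5, -0.37 at RAS day 14, where EGR1 differed by -1.89 in Ribo-Seq, and 0.89 in the transformed column.

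Relatives of the members in other tissues and in non-muscle cells were 16 listed genes, of which 11 passed. None differed by 2-fold in RNA in quiescence or at RAS day 5, where 2.48% and 1.73% of all genes were lower and 3.32% and 1.65% higher. TAGLN2, the non-muscle relative of TAGLN, differed by -1.67 and MYH10, a non-muscle myosin heavy chain, by -1.24 at RAS day 14. CNN2 and CNN3, the other calponins, differed by -1.27 and -1.08 in the transformed column. Each pair is 2 of the 11, beside 11.2% of all genes lower at RAS day 14 and 4.05% in the transformed column. None of the 11 differed by 2-fold in RNA between the controls, where 3.81% of all genes were higher in run 2 and 2.78% lower.

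Likeness to the members was measured as Pearson's r with their mean over 12 values, 6 columns in each assay. Each gene was centred within an assay and scaled to the same spread. Of 3296 genes with an RNA range of at least 1 (log2), 9 had an r above 0.9. The 5 highest were RAB3B, a GTPase of vesicle traffic (0.96), PDLIM5 (0.94), the actin-binding LIMA1 (0.93), the desaturase SCD5 (0.93) and the follistatin-like FSTL3 (0.92). RAB3B RNA was 40.3, 32.8 and 31.8 FPKM in proliferation, quiescence and RAS day 5 of run 1 and 105, 57.2 and 21.5 in proliferation, RAS day 14 and the transformed column of run 2. The 12 values share their libraries and the gap between runs. With 8 differences from the same-run control in place of levels, none of these 5 was among the 5 highest. Their ranks then ran from 49 (RAB3B) to 506 (LIMA1). Those differences were not scaled, so members with large differences weighed more in the mean, and the 2 measures differ in this as well. Among the members, which are part of that mean, CALD1 (0.94) and MYL9 (0.93) followed it most closely, TPM2 (0.68) and TAGLN (0.71) least among the contractile genes, and SRF had -0.14.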

How the data were processed

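Per the file headers and the study's methods, the deposited table holds FPKM values, which the authors computed for 1 transcript per gene of Ensembl's annotation from uniquely mapped reads, over the whole transcript for RNA-Seq and over the coding sequence for Ribo-Seq, with values under 1 set to 1. The submitters' processing notes name Bowtie and hg19. Of the 12 columns, 5 are pooled by the authors over replicates in a way not given in the sources used here. The table holds no counts, and the study's read totals were not used here, so no interval or detection limit was set. Unique mapping may lower close paralogs.

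From these values log2 differences from the same-run control and TE were computed (Python 3.11.15, numpy 2.4.6, pandas 2.3.3, figures with matplotlib 3.10.9), without a pseudocount. Genes with a mean of 5 FPKM or more in each assay counted as tested. A call was 2-fold for levels and 1.5-fold for TE. No p-value was computed. The counting was tested on simulated data. The members and lists were chosen with earlier results of these data known. All members were named, other genes at most 4 per list and comparison by the largest difference, and the 5 most alike by Pearson's r; exceptions are marked in the text. Fibroblast, smooth-muscle, skeletal or cardiac, epithelial, endothelial and leukocyte markers were looked for. Of 4 leukocyte genes 2 had a row, with a summed RNA level of 39.3 to 133 FPKM. Nearly all of that sum was CD68, with 38.3 to 132 FPKM, while CD14 had 1.00 to 1.67. The check of the other knockdown is not reported here.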

Additional observations from a re-analysis of the deposited data

Results flagged for a closer look

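Each of the following values is a difference between 2 log2 differences from control that point opposite ways, and none was tested. The state at RAS day 14 and the column labelled transformed, set against the same control, pointed opposite ways for MYL9 RNA (0.20 and -1.22, apart by 1.42), for TPM2 RNA (0.68 and -0.55, apart by 1.22) and for TPM2 in Ribo-Seq (0.12 and -0.37, apart by 0.48). RAS day 5 and RAS day 14, each set against the control of its own run, pointed opposite ways for MYL9 RNA (-0.77 and 0.20, a difference of -0.97), for TPM2 RNA (-0.03 and 0.68, a difference of -0.71) and for SRF in Ribo-Seq (0.61 and -0.58, a difference of 1.19). Time point and run cannot be told apart in these last 3. All the TPM2 values given here are smaller than the gap between both controls, which was 1.28 in RNA and 0.75 in Ribo-Seq, and so is the 0.20 of MYL9 RNA, with a gap of 0.42. With the RAS day 14 and proliferating Ribo-Seq libraries of run 2 exchanged, the day 14 difference becomes 0.58 for SRF and -0.12 for TPM2 in Ribo-Seq. SRF then points the same way at day 5 and day 14, and TPM2 the same way at day 14 and in the transformed column (-0.48).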

How the results depend on the processing

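Counts of members 2-fold lower or higher (levels) or 1.5-fold lower or higher (TE) were recomputed under each alternative, and the cause of a change was not tested. Percentages in brackets are the shares of all genes counted under the same setting that were called in that direction. With the control of the other run, the lower RNA counts became 7 in quiescence (3.51%) and 8 at RAS day 5 (5.53%). They became 0 at RAS day 14 (16.3%), with 2 higher (11.8%), and 3 in the transformed column (3.91%). The lower Ribo-Seq counts became 5 in quiescence (10.3%) and 3 in the transformed column (9.36%), and 2 were higher at RAS day 14 (17.2%). In TE 3 were higher in quiescence (10.1%). The lower TE counts became 0 at day 5 (24.8%), 4 at day 14 (22.0%) and 1 in the transformed column (16.5%). CNN1 reversed to 0.68 in RNA and 0.38 in Ribo-Seq in the transformed column and to 2.08 in Ribo-Seq at day 14, and TPM1 reversed to 0.066 in TE at day 5. With the mean of both controls the lower RNA counts were 6 in quiescence (1.72%) and 6 at day 5 (3.13%), and 1 was higher at day 14 (8.43%). The lower TE counts were then 1 at day 5 (22.0%) and 2 at day 14 (19.0%), and CNN1 in Ribo-Seq at day 14 reversed to 0.52. A pseudocount of 1 FPKM left 1 higher (9.86%) and 3 lower (20.6%) in TE at day 5. With columns centred on their median, 1 was lower in RNA in quiescence (2.13%) and 1 in Ribo-Seq at day 14 (13.5%). In TE under that setting, 1 was lower at day 5 (14.9%) and 1 was higher in the transformed column (5.18%). Only 6 of the 9 members were among the 3223 genes with a mean of 20 FPKM or more. Counts under that setting are therefore out of 6, and can be smaller because members dropped out. The lower counts were 1 in RNA at day 5 (1.71%) and 0 in RNA at day 14 (8.19%). They were 3 in Ribo-Seq at day 5 (5.62%), 1 in Ribo-Seq at day 14 (11.98%) and 1 in TE at day 5 (21.7%). In TE at day 5, 0 were higher (5.24%). Calls at 1.5-fold for levels gave 4 lower in RNA in quiescence (9.25%), 7 at day 5 (6.00%) and 4 at day 14 (19.8%). They gave 1 higher in RNA at day 14 (19.8%) and 1 higher in Ribo-Seq at day 5 (13.1%). Calls at 2-fold for TE gave 0 lower (7.19%) and 0 higher (3.13%) at day 5. Exchanging the RAS day 14 and proliferating Ribo-Seq libraries of run 2 gave 3 higher (15.5%) and 0 lower (10.7%) in Ribo-Seq at day 14. In TE that exchange gave 6 higher (34.9%) and 1 lower (31.7%) at day 14, and 6 higher in the transformed column (24.8%). It reversed TAGLN to 1.03, CNN1 to 1.05 and LMOD1 to 3.63 in Ribo-Seq at day 14. Without the filter on low values all 24 counts were within 1.5 times those reported, and with RAS day 14 as reference, chosen after the values were seen, so were all 4 counts of the transformed column. No paired analysis was possible because the columns of the replicated states are pooled and no test was made, and for the same reason no replicate could be left out.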

Other observations

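Among the listed genes that did not pass the filter on low values, SYNPO2 and MYOCD were at or near the floor in run 1 and above it in proliferation and at RAS day 14 of run 2. SYNPO2, which encodes the Z-disc protein synaptopodin-2, had RNA at 1.00 FPKM in proliferation run 1, quiescence and RAS day 5, at 5.89 in proliferation run 2, at 6.94 at RAS day 14 and at 1.00 in the column labelled transformed. Its Ribo-Seq levels were 1.20, 1.04 and 1.00 FPKM in run 1 and 10.0, 10.4 and 1.00 in run 2, in the same order. MYOCD had the same layout at lower levels. Unlike LMOD1, neither was lower at RAS day 14 than in the control of that run. ACTG2 and SMTN, muscle genes that did pass, had less RNA in the control of run 2 than in that of run 1, 2.13 against 22.4 FPKM and 60.1 against 93.2. For ACTG2 this is partly fixed by the filter, which it passed in RNA through the run 1 control. SYNPO2 was named after its values were seen.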
